A study of Mus musculus with 10 samples.

Results

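Pyk2, focal adhesion kinase and the Src-linked scaffold proteins of cell adhesion were followed at the mRNA level in lung tumors of KP and KPG1 mice. The 10 genes Ptk2b, Ptk2, Src, Yes1, Pxn, Bcar1, Bcar3, Nedd9, Tln1 and Vcl were selected by gene symbol out of 39017 genes in the joint count table. This set was put together with the difference between KPG1 and KP tumors already known, so that difference is described below for the 10 genes without a p-value. KP mice are a model of lung adenocarcinoma in which Cre recombinase starts the tumors, and KPG1 mice are the same model with the glucose transporter gene Slc2a1 (Glut1) floxed on both alleles.

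All 10 tumors came from male C57BL/6 mice that received Ad5SPC-Cre by the trachea, an adenovirus in which the promoter of surfactant protein C drives Cre, so that recombination was directed to cells that make this protein. Tumors were taken 18 weeks and 6 days after initiation, dissected, dissociated and depleted of CD45-bearing immune cells with magnetic beads, and RNA came from the fraction left. For the 5 KP controls 1 label gives a heterozygous floxed Slc2a1 and another gives wild type, so KP stands for either here. The 5 KPG1 tumors are labelled homozygous for the floxed gene. Nothing in the labels says that the tumors of a group came from separate animals, so the spread within a group is that between these samples.

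Pyk2 (Ptk2b) and focal adhesion kinase (Ptk2) are the members of a small family of cytoplasmic tyrosine kinases that are switched on where integrins bind the extracellular matrix. Once autophosphorylated they dock Src family kinases such as Src and Yes, and the resulting complex phosphorylates the scaffolds paxillin (Pxn) and p130Cas (Bcar1), which recruit the machinery for small GTPase signalling. Talin (Tln1) and vinculin (Vcl) form the mechanical link from integrin to actin. Pyk2 differs from focal adhesion kinase in that it also responds to calcium and is abundant in blood and nerve cells.

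The members lie on 8 mouse chromosomes in GENCODE M21 on mm10, and all are protein coding. Ptk2b, on the minus strand of chromosome 14 from 66153257 to 66281052, overlaps no other annotated gene. Exons of Vcl, on the plus strand of chromosome 14 from 20929398 to 21033676, share 2090 bases with Ap3m1 on the opposite strand. Yes1 (chromosome 5, 32611171 to 32687057, plus strand), Bcar3, Nedd9 and Tln1 share 635, 698, 62 and 360 exon bases with genes on the opposite strand. The libraries were stranded, but the strand setting of the counting is not given in the sources used here, so reads of these pairs may not be fully separated.

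Promoter windows, from 250 bases before to 50 after a start site, had an entry in the RefSeq table (GRCm38.p6) for 7 of the 10 members, with 9 windows in all. No entry was found for Ptk2b, Ptk2 and Pxn. The windows of Vcl and Yes1 are shown, Vcl because it alone held a CArG box, the binding motif of serum response factor, and Yes1 because it carries the relation described further on. In the Vcl window, at chr14:20929148-20929447 on the plus strand, the first run of capitals is the CArG box and the second is GGAATG, the core motif of TEAD factors. The motifs in capitals do not overlap each other.
Vcl: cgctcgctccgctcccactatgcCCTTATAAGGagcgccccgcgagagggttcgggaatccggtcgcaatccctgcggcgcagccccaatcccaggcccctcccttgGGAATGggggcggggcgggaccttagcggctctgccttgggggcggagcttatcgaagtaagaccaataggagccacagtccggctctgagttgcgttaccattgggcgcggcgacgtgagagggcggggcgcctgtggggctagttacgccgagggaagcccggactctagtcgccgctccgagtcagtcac
Yes1, chr5:32610921-32611220 on the plus strand: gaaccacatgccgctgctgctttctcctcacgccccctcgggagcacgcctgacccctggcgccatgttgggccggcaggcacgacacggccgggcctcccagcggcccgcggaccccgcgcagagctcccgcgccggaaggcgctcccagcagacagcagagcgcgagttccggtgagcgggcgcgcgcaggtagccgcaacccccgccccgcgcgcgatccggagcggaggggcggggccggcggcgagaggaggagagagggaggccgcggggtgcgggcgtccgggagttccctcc
On either strand, the CArG box was found in 1 of the 9 member windows and in 1.63% of all 32851 windows in the table. GGAATG was found in 1 of the 9, against 14.7% of all windows. The Sp motif GGGCGG, which the Vcl and Yes1 windows hold in lower case, was found in 7 of the 9, against 35.7%. The AP-1 motif TGANTCA and the CRE motif TGACGTCA matched 0 of the 9 member windows and 7.81% and 1.79% of all windows. A match describes letters in these windows, and none was tested as a binding site.

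The libraries held 32427029 to 49534284 counts, and 16216 genes passed the filter on low counts, all 10 members among them. Values are CPM, counts scaled to the library size with factors from the trimmed mean of M-values (TMM), and differences between groups are log2 fold changes from limma-voom, given as KPG1 minus KP with the standard error. The floxed gene Slc2a1 averaged 102 ± 25.4 CPM in KP tumors against 50.1 ± 10.1 CPM in KPG1 tumors (mean ± SD, n = 5 each), with no overlap between the groups. The 8 epithelial markers summed to 21260 to 55632 CPM in KP and 41943 to 75364 CPM in KPG1. The 17 leukocyte markers summed to 76.7 to 146 CPM in KP and 50.3 to 106 CPM in KPG1, the 11 endothelial markers to 441 to 1360 CPM and 634 to 1882 CPM, and the 8 fibroblast markers to 156 to 329 CPM and 218 to 397 CPM. Of the 8 epithelial markers, the keratins Krt8 and Krt18 alone did not overlap and were lower in KPG1, as were 1.76% of all genes tested. By mean, only 3 of the 8 were lower in KPG1. The surfactant genes Sftpb, Sftpc and Sftpa1 had the largest means of the 8 in both groups. Sftpc averaged 11633.9 CPM in KP and 24606.5 CPM in KPG1, with overlap. No marker on these 4 lists was at 0 in all libraries. In bulk tissue, fewer cells of a type and less RNA per cell cannot be told apart.

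Of the 10 members, 1 was past the adjusted threshold of 0.05 in the fit across all genes, Ptk2b, which was lower in KPG1. Across all genes tested 0.173% were past it in either direction, 0.111% lower and 0.0617% higher in KPG1. Ptk2b was also the only member whose groups did not overlap, against 2.81% of all genes in either direction, 1.76% lower and 1.05% higher in KPG1. Since this contrast chose the members, nothing is read from these shares. By fitted direction 4 members were higher and 6 lower, and the median of the log2 fold changes was -0.07 over the 10 members and 0.02 over all genes tested.

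**Figure D1:**
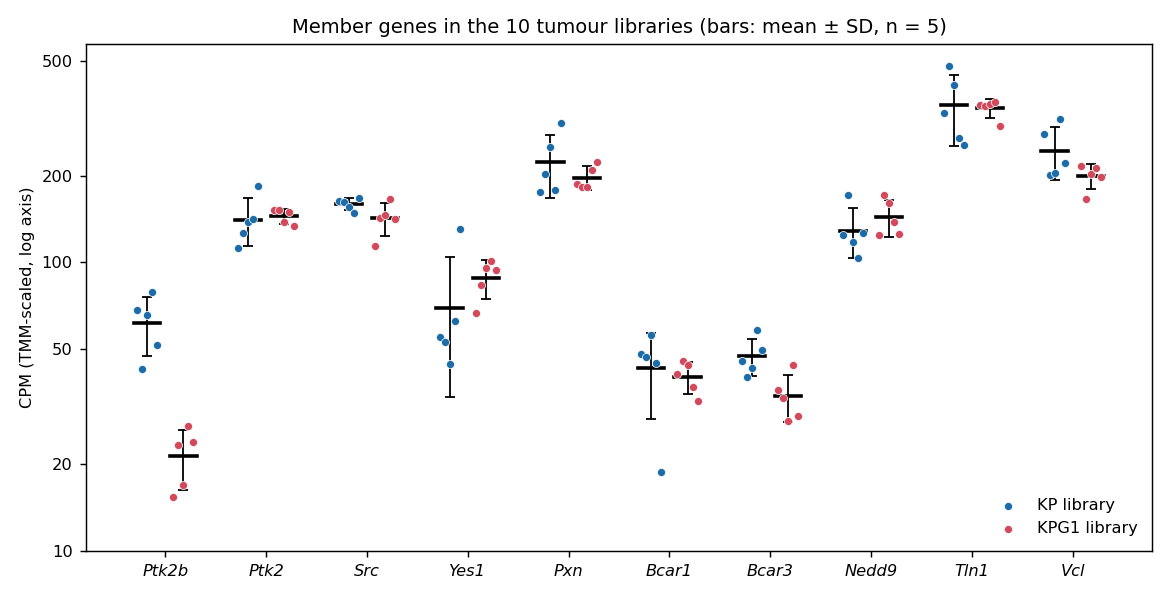
Expression of the 10 members in each tumor library, in CPM on a log axis, with KP in blue and KPG1 in red. Points are libraries in the order of their numbers, and bars are the mean ± SD of 5 libraries. The KPG1 points of Ptk2b, at 15.4 to 27.1 CPM, all sit under the KP points, at 42.8 to 78.9 CPM, and the points of the other 9 members overlap.

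The focal adhesion kinase family has both of its kinases among the members. Ptk2b was at 68.4, 42.8, 65.7, 78.9 and 51.8 CPM in KP 1 to KP 5 and at 15.4, 23.2, 16.9, 27.1 and 23.8 CPM in KPG1 1 to KPG1 5. The highest KPG1 library lay below the lowest KP library. The mean ± SD was 61.5 ± 14.2 CPM for the 5 KP and 21.3 ± 4.96 CPM for the 5 KPG1 tumors, 34.6% of the level in KP, and the log2 fold change was -1.55 (SE 0.21). Over the 18 alternatives in which Ptk2b was tested, this value stayed between -1.67 and -1.39. It was past the threshold in 10 of them and outside it in 8. Among the 8 were the fits that left out 1 of KP 1, KP 3, KP 4, KPG1 1, KPG1 2, KPG1 3 or KPG1 5, where the log2 fold changes were -1.50, -1.53, -1.45, -1.43, -1.59, -1.47 and -1.60.

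Because Pyk2 is abundant in blood cells, the leukocyte markers are given beside it. Of the 17, 14 had a lower mean in KPG1, and the share of all genes with a lower mean was not counted. For 3 of the 17 the groups did not overlap, all lower in KPG1, against 1.76% lower and 1.05% higher of all genes tested. These 3 were Itgam, a myeloid integrin chain, and the neutrophil genes S100a8 and S100a9, named after their values were seen. Itgam was at 6.15 to 16.6 CPM in KP and 2.51 to 5.80 CPM in KPG1. S100a8 was at 1.29 to 4.32 CPM and 0.200 to 1.08 CPM, and S100a9 at 2.17 to 7.20 CPM and 0.343 to 1.44 CPM. Ptprc, the gene of CD45 itself, overlapped, with 5.21 to 9.98 CPM in KP and 5.42 to 10.97 CPM in KPG1. Within groups, Ptk2b and the mean log2 level of the leukocyte markers had a Pearson's r of -0.09 and a Spearman's rho of 0.01 over the 10 libraries. The exact permutation p for this r was 0.820 (adjusted p 0.921 over the 40 relations of members with marker lists). The part of leukocytes in the lower Ptk2b level was not tested.

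Ptk2, which encodes focal adhesion kinase, was at 112, 127, 138, 141 and 184 CPM in KP and at 151, 151, 138, 149 and 133 CPM in KPG1. All KPG1 libraries lay inside the KP range, and KP 5 was the highest of all 10. The log2 fold change was 0.06 (SE 0.13). The Ptk2 to Ptk2b ratio in CPM per exon kilobase ranged from 1.03 to 2.22 in KP and from 3.45 to 6.16 in KPG1. The gap between these ranges is that of Ptk2b and adds no separate evidence.

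The Src family kinases overlapped between the groups. Src varied little in KP, at 163, 162, 156, 148 and 167 CPM, and was at 114, 143, 146, 166 and 141 CPM in KPG1. KPG1 1 was the lowest of the 10, and KPG1 4 reached the KP range. The log2 fold change of Src was -0.17 (SE 0.12). Yes1, the closest relative of Src among the members, was at 55.0, 53.0, 44.3, 62.9 and 131 CPM in KP and at 67.0, 83.4, 95.5, 102 and 94.0 CPM in KPG1. All 5 KPG1 libraries were above KP 1 to KP 4, while KP 5 was above every KPG1 library. The log2 fold change of Yes1 was 0.45 (SE 0.26) with all libraries and 0.71 without KP 5, where it alone of the alternatives was past the threshold. The ratio of Src to Yes1 in CPM per exon kilobase was 4.05 to 6.03 in KP 1 to KP 4. It was 2.19 in KP 5 and 2.58 to 2.94 in the KPG1 libraries.

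Among the scaffolds, Pxn, which docks vinculin and focal adhesion kinase, was at 175, 202, 250.6, 178 and 305 CPM in KP and at 187, 182, 182, 209 and 223 CPM in KPG1. Its log2 fold change was -0.14 (SE 0.16), and the KPG1 libraries fell inside the KP range. Bcar1 was at 48.2, 46.9, 56.0, 44.7 and 18.7 CPM in KP and at 41.0, 45.7, 44.0, 37.1 and 33.1 CPM in KPG1. KP 5 held less than any other library, and KP 3 held the most. The log2 fold change of Bcar1 was -0.01 (SE 0.26). The ends of its range over the alternatives were 0.11 without KP 3 and -0.29 without KP 5.

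Nedd9, a second Cas family scaffold, was at 125, 171, 118, 104 and 126 CPM in KP and at 124, 172, 160, 138 and 125 CPM in KPG1, with a log2 fold change of 0.17 (SE 0.15). The ranges overlapped over most of their length. The ratio of Nedd9 to Bcar1 in CPM per exon kilobase was 4.81 in KP 5 and 1.50 to 2.70 in the other 9 libraries. Bcar3, which binds the Cas proteins and promotes Src and Rap signalling, was at 45.6, 40.2, 43.1, 58.3 and 49.7 CPM in KP. In KPG1 it was at 36.1, 33.8, 28.2, 44.1 and 29.4 CPM, and KPG1 4 alone reached the KP range. KPG1 held 72.4% of the KP mean of Bcar3, with a log2 fold change of -0.48 (SE 0.15) and a range of -0.57 to -0.39 over the alternatives.

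The actin linkers complete the members. Tln1, which couples integrins to actin, was at 329, 481, 414, 270 and 256 CPM in KP and at 351, 350, 355, 361 and 297 CPM in KPG1. The KP libraries spread on both sides of a narrow KPG1 range, and the log2 fold change of 0.01 (SE 0.18) changed sign under 14 of the 19 alternatives. Vcl was at 279, 201, 203, 315 and 222 CPM in KP and at 216, 166, 203, 212 and 198 CPM in KPG1. The 2 highest libraries of Vcl were KP 4 and KP 1 and the lowest was KPG1 2, with a log2 fold change of -0.28 (SE 0.15).

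**Figure D2:**
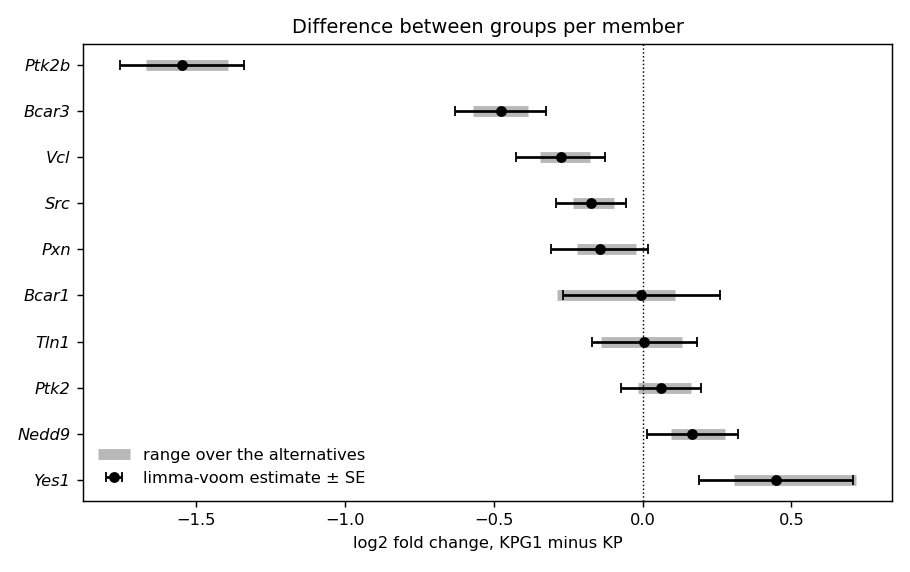
Log2 fold change of each member between KPG1 and KP, with KPG1 minus KP on the horizontal axis. Points and black bars are the limma-voom estimate ± SE of 5 against 5 libraries, and gray bars span the estimates over the alternative settings. Ptk2b, at -1.55, stands far to the left of Bcar3, at -0.48, and the other members lie between -0.28 and 0.45.

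The spread between tumors is given per group. The SD of log2 CPM was larger in KP for 8 of the 10 members, with Src and Bcar3 as the exceptions and Ptk2b counted on a difference beyond the second decimal, and for 73.5% of all genes tested. Bcar1 had an SD of 0.63 in KP and 0.19 in KPG1, and Yes1 had 0.61 and 0.24. For Ptk2b the SD was 0.35 in both groups. KP 5 held the highest KP value of Ptk2, Src, Yes1 and Pxn and the lowest of Bcar1 and Tln1, 6 of the 10 members, and 61.5% of all genes tested had their highest or lowest KP value there. Without KP 5 the SD was larger in KP for 6 of the 10 members and for 61.3% of all genes.

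Levels were compared between members only per length, as CPM per kilobase of annotated exon (RPKM) over all 10 libraries. Tln1 was highest, at 35.3 ± 6.78 RPKM (SD, n = 10), then Src at 34.5 ± 3.69, Vcl at 27.0 ± 5.29, Pxn at 25.6 ± 5.00 and Nedd9 at 21.4 ± 3.68. Below these came Ptk2 at 12.1 ± 1.60, Yes1 at 10.5 ± 3.60, Bcar1 at 9.13 ± 2.23, Bcar3 at 7.29 ± 1.67 and Ptk2b at 5.60 ± 3.17 RPKM. This order pools both groups. In KP alone Ptk2b was at 8.32 ± 1.92 RPKM (SD, n = 5), beside Bcar3 at 8.46 ± 1.25, Yes1 at 9.22 ± 4.68 and Bcar1 at 9.43 ± 3.12, and it lay above Bcar3 in KP 1, KP 3 and KP 4. In KPG1 alone Ptk2b was at 2.88 ± 0.67 RPKM (SD, n = 5), below Bcar3 at 6.13 ± 1.13, Bcar1 at 8.83 ± 1.13 and Yes1 at 11.8 ± 1.80. Of the 9 neighbouring steps, 1 passed a two-sided exact sign-flip permutation test after Benjamini-Hochberg adjustment. This was the step from Nedd9 down to Ptk2, a log2 difference of 0.82 ± 0.31 (SD, n = 10) seen in 10 of 10 libraries (exact p 0.00195, adjusted p 0.0176). Src lay above Vcl in 8 of 10 libraries, by a log2 difference of 0.36 ± 0.29 (SD, n = 10, exact p 0.0117, adjusted p 0.0527). The other 7 neighbours, Tln1 and Src among them, did not pass either. One of these was Bcar3 over Ptk2b, by a log2 difference of 0.57 ± 0.63 (SD, n = 10). The mean and the SD of that step include the group difference of Ptk2b, which chose the members, so its p-value is not given. Measured against the longest transcript in place of all exons, Pxn came first at 55.7 RPKM and Ptk2 moved above Nedd9, while Ptk2b was again the lowest at 10.3 RPKM.

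Whether members varied together between tumors of the same group was examined on log2 CPM after subtracting each group's mean, which leaves out the difference between groups. Of the 45 pairs, 0 passed an adjusted p of 0.05 by Pearson's r or by Spearman's rho in the exact permutation test within groups, and 2 had an unadjusted p under 0.05 by r. The smallest adjusted p was 0.592. The widest value was that of Yes1 and Bcar1, with r = -0.92 (exact p 0.0157) and rho = -0.76 (exact p 0.0254) over 10 libraries. It was -0.90 without KP 3 and fell to -0.54 without KP 5, so it rests mostly on KP 5. Without KP 3 and KP 5, the 2 libraries farthest from the median of Yes1, it was -0.37. The second pair was Src and Yes1, with r = 0.46 (exact p 0.0411) and rho = 0.70 (exact p 0.0302), and r = 0.43 without KPG1 1 and KPG1 4. Ptk2b had its highest r with Bcar3, at 0.51, and its lowest with Nedd9, at -0.48.

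**Figure D3:**
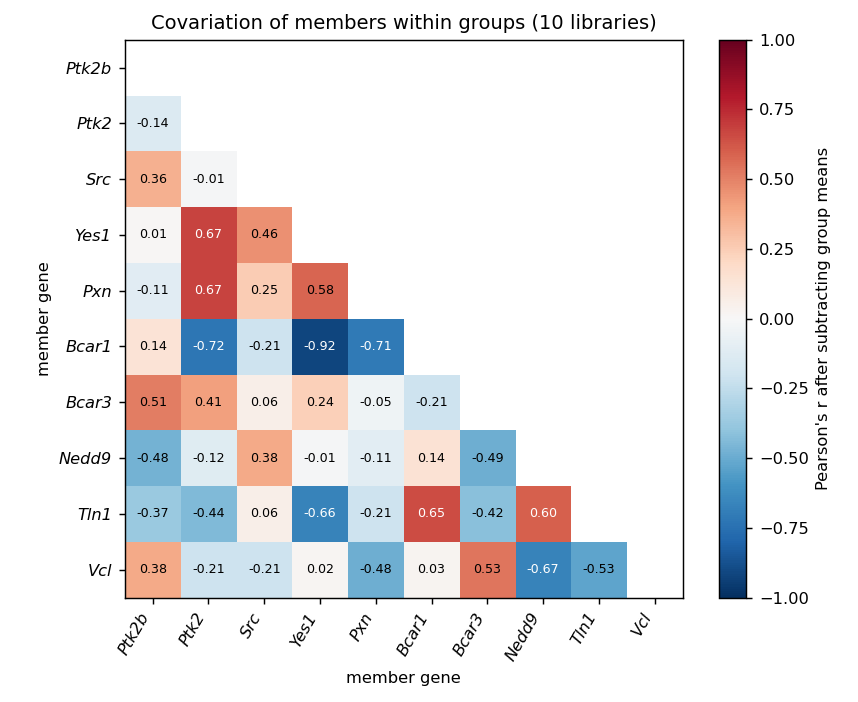
Pearson's r of log2 CPM between members over 10 libraries after subtracting group means, colored from -1 in blue to 1 in red. The cell of Yes1 and Bcar1 holds -0.92, and 24 of the 45 pairs are negative.

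Of the 40 relations between the 10 members and the 4 marker lists within groups, 1 passed the adjusted threshold. Yes1 was lower in libraries with more endothelial marker expression, with r = -0.88 (exact permutation p 0.000208, adjusted p 0.00833) and rho = -0.88 (exact p 0.00118, adjusted p 0.0472) over 10 libraries. The r was -0.91 without KP 3 and KP 5 and between -0.92 and -0.84 without any 1 library. The endothelial markers, as the mean log2 CPM of 11 genes, were at 5.74, 6.37, 6.58, 5.64 and 4.91 in KP 1 to KP 5, where Yes1 was at 5.78, 5.73, 5.47, 5.98 and 7.03 log2 CPM. In KPG1 1 to KPG1 5 they were at 7.0, 6.01, 5.98, 5.50 and 6.06, and Yes1 at 6.07, 6.38, 6.58, 6.67 and 6.55 log2 CPM. KP 5 thus had the lowest endothelial level of all and the highest Yes1, and KP 3 and KPG1 1 had the highest endothelial level and the lowest Yes1 of their groups. These markers summed to at most 1882 CPM in any library, and the part of endothelial cells in the Yes1 level was not tested. Src had r = -0.68 with the same markers (exact p 0.0260, adjusted p 0.521). It was -0.43 without KPG1 1, -0.30 without KPG1 1 and KPG1 4, and -0.75 without KP 4, where it passed (adjusted p 0.0139). Bcar1 had r = 0.67 with them (exact p 0.0447, adjusted p 0.596), which fell to 0.36 without KP 5 and to 0.44 without KP 5 and KPG1 5.

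**Figure D4:**
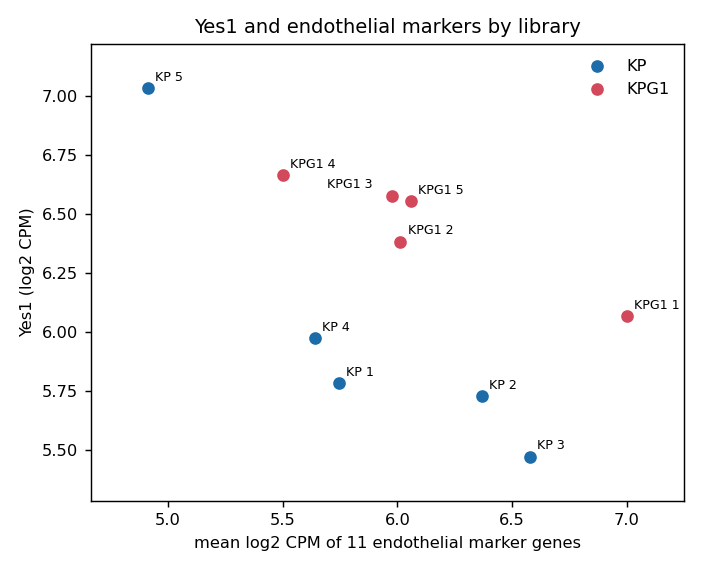
Yes1 in log2 CPM against the mean log2 CPM of 11 endothelial marker genes, with a labelled point for each library, KP in blue and KPG1 in red. Within each group Yes1 runs down as the endothelial level goes up, from KP 5 at 7.03 to KP 3 at 5.47 and from KPG1 4 at 6.67 to KPG1 1 at 6.07.

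The wider adhesion pathway was taken from 6 lists of 136 genes, none of them a member, of which 134 were tested. In the limma fit across all genes 0 of the 134 passed an adjusted p of 0.05 in either direction. At an unadjusted p under 0.05, 2 were higher and 14 lower in KPG1, against 5.26% and 6.31% of all genes tested. The edgeR quasi-likelihood test called 0 as well, and DESeq2 called 3, all lower, which were Rhoc, Ilk and Actn1. The groups did not overlap for 3 of the 134, all lower in KPG1, against 1.76% lower and 1.05% higher of all genes tested. By fitted direction 52 were higher and 82 lower, with a median log2 fold change of -0.07 beside 0.02 over all genes. The share of all genes fitted lower was not counted.

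The list of talin, kindlin and actin linkers, singled out after the values were seen, leaned furthest, with 26 of 32 genes fitted lower. Of these, 5 were at an unadjusted p under 0.05, and the median log2 fold change of the list was -0.17. Actn1, the actin crosslinker alpha-actinin, averaged 9.02 ± 0.24 log2 CPM in KP tumors and 8.49 ± 0.11 in KPG1 tumors (mean ± SD, n = 5 each), without overlap. It differed by -0.54 on the log2 scale (SE 0.13, adjusted p 0.166 in limma). Ilk, the integrin-linked pseudokinase, also did not overlap, at 7.03 ± 0.11 and 6.73 ± 0.09 log2 CPM (SD, n = 5 each), a difference of -0.30 (SE 0.10, adjusted p 0.294 in limma). Ilk shares 2461 exon bases with genes on the opposite strand. Zyx, zyxin of stress fibers, differed by -0.58 (SE 0.21, adjusted p 0.325 in limma).

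Among the small GTPases and their regulators 13 were fitted higher and 14 lower. Rhoc, a small GTPase linked to cell migration, was at 6.20 ± 0.30 and 5.59 ± 0.12 log2 CPM (SD, n = 5 each), a difference of -0.62 (SE 0.15, adjusted p 0.153 in limma). The highest KPG1 library of Rhoc, KPG1 1 at 5.79, barely passed the lowest KP library, KP 2 at 5.78. Rhob, a small GTPase of endosomes, differed by -0.84 (SE 0.26, adjusted p 0.259 in limma) and Tiam2, a Rac exchange factor, by -0.94 (SE 0.38, adjusted p 0.370 in limma), both on the log2 scale.

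Of the 19 integrin genes 7 were fitted higher and 12 lower. The epithelial integrin chains Itgb6 and Itgb4 had log2 fold changes of -0.56 (SE 0.20) and -0.65 (SE 0.24), and Itga4, carried by leukocytes and stromal cells, of 0.78 (SE 0.30), with limma adjusted p-values of 0.327, 0.334 and 0.357. Actn1, Zyx, Tiam2, Itgb4, Itga4, Rb1cc1 and Ptpre also share exon bases with genes on the opposite strand. Direct partners of Pyk2 and focal adhesion kinase split into 7 higher and 7 lower. Asap2, a Pyk2-binding Arf GTPase activator, did not overlap between groups, at 6.75 ± 0.38 and 6.25 ± 0.10 log2 CPM (SD, n = 5 each), a difference of -0.50 (SE 0.17, adjusted p 0.303 in limma). It shares exon bases with neighbours on both strands. Arhgef28, an exchange factor that binds focal adhesion kinase, differed by -0.42 (SE 0.15, adjusted p 0.322 in limma) and Rb1cc1, the kinase inhibitor FIP200, by 0.27 (SE 0.14, adjusted p 0.495 in limma).

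Adaptors downstream of Cas and paxillin were fitted higher in 12 and lower in 14, with a median log2 fold change of 0.00 and no gene at an unadjusted p under 0.05. The 3 with the smallest p were Arhgef7, at 0.33 (SE 0.15), Pak1, at -0.55 (SE 0.29), and Git2, at 0.27 (SE 0.17), which act together as a Rac and Cdc42 exchange and effector module, with limma adjusted p-values of 0.449, 0.499 and 0.562. The list of the Src family and its regulators had 7 fitted higher and 9 lower. Ptpre, a receptor phosphatase that can activate Src, differed by -0.61 on the log2 scale (SE 0.20, adjusted p 0.272 in limma). The Csk-like kinase Matk and the myeloid Src relative Fgr were low, with KP means of -1.30 and 1.05 log2 CPM, and differed by -0.85 (SE 0.47, adjusted p 0.514 in limma) and -0.76 (SE 0.43, adjusted p 0.526 in limma).

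**Figure D5:**
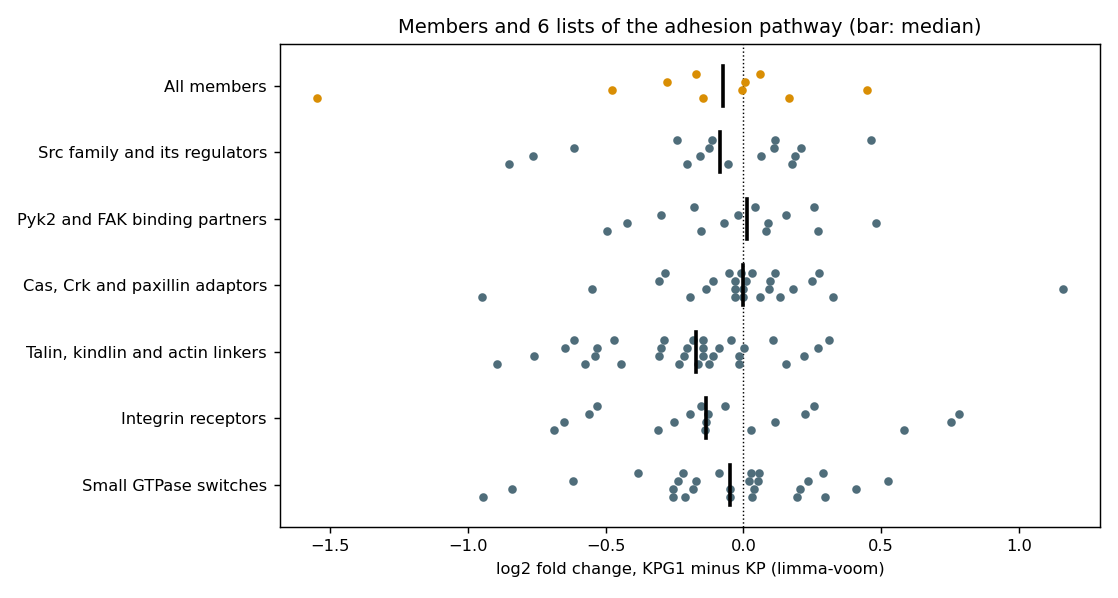
Log2 fold change of the 10 members and of the 134 tested genes of 6 adhesion lists, with KPG1 minus KP on the horizontal axis. Each point is a gene and the black bar is the median of its row. Ptk2b, at -1.55, lies further left than any gene of the 6 lists, whose lowest value is -0.95, and the median of talin, kindlin and actin linkers lies at -0.17.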

How the data were processed

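RNA of the CD45-negative fraction of 5 KP and 5 KPG1 lung tumors was sequenced. The submitters' processing notes name bcl2fastq 2.17, cutadapt 1.4.2, HISAT2, featureCounts 1.4.4, edgeR and build mm10. The authors deposited raw counts, whole numbers of reads for each gene without normalization. The deposited log2 table, made by the authors with TMM factors and voom, was used for 1 alternative only. Depth was 32427029 to 49534284 counts, and a count of 0 allows up to 3 counts, a floor for counting error only.

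Genes were kept by filterByExpr in place of the study's TPM filter, and fitted by TMM, voom and limma 3.58.1 (edgeR 4.0.16, R 4.3.3), with Benjamini-Hochberg adjustment over 16216 genes and a threshold of 0.05. Log2 CPM used a prior count of 2. RPKM used GENCODE M21 exon lengths. Covariation was tested by exact permutation within groups (14400 arrangements) and levels by exact sign flips (1024), all two-sided. These tests were written in Python 3.11.15, with ranks from scipy 1.17.1. Scripts were tested on simulated data. Alternatives were edgeR, DESeq2 1.42.0, RLE factors, other filters, library weights, a replicate block and leaving out each library.

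The members and the lists, written from general knowledge, were chosen with earlier results of these data known. The text names all members, up to 3 genes of the smallest p per list, and the 5 genes most like Ptk2b. Tns2, Arhgap35 and Adgre1 were matched by Ensembl ID, and Sh2d3a matched no row. The engineered alleles that start the tumors are not reported here.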

Additional observations from a re-analysis of the deposited data

Results flagged for a closer look

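A single library stood apart from the other 4 of its group, with a gap over 0.710 of the group's range (Dixon's 95% value for 5 samples), in 5 of 64 groups (the 10 members, 18 named list genes and 4 marker list means, each in KP and in KPG1), where chance gives about 3.2. In KP 5, Bcar1 was at 4.23 log2 CPM, under the other KP libraries at 5.48 to 5.81, with a gap of 0.794 of the range. In KP 5, Git2 was at 6.48 log2 CPM, above the others at 5.63 to 5.84, with a gap of 0.755. In KPG1 5, Tln1 was at 8.22 log2 CPM, under the others at 8.45 to 8.49, with a gap of 0.841. In KPG1 4, Pak1 was at 4.52 log2 CPM, under the others at 5.68 to 5.90, with a gap of 0.835. In KPG1 1, Rhoc was at 5.79 log2 CPM, above the others at 5.49 to 5.57, with a gap of 0.719.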

How the results depend on the processing

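Genes lower in KPG1 numbered 18 and genes higher 10. The lower count was 29 in edgeR, 423 in DESeq2, 31 with no filter or at a mean CPM of at least 20, 29 at a mean TPM of at least 20 (30 on the longest transcript, a setting chosen after seeing the data), 177 with library weights and 2 to 182 leaving out 1 library, 182 being without KP 5. The higher count was 125 in DESeq2, 5 at a mean CPM of at least 20, 6 at a TPM of at least 20 on the longest transcript, 51 with weights and 3 to 68 leaving out 1 library, 68 being without KP 5. With a replicate block 1 gene was lower and 4 higher, and 0 members were called. Same-numbered deviations from the group means correlated at -0.16 to 0.08. These values show no pairing by number, but they cannot exclude one. Members lower numbered 1, with 0 at a TPM of at least 20, where Ptk2b (mean TPM 19.1 on all exons, 27.0 on the longest transcript) was not tested, and 0 to 1 leaving out 1 library. Members higher numbered 0 to 1, the 1 being Yes1 without KP 5. Adhesion list genes lower numbered 3 in DESeq2 and 1, Rhob, with weights. Marker relations numbered 1 to 2 leaving out 1 library, the second being Src without KP 4. Neighbouring members that differed numbered 2 by longest transcript, 0 in KP alone (smallest possible p 0.0625), and 1 to 3 leaving out 1 library, with 3 without KP 1 and 2 without KP 4. Signs changed only near 0. Leaving out 1 library gave log2 fold changes of -0.014 (without KP 1) to 0.16 for Ptk2, -0.29 to 0.11 for Bcar1 and -0.096 to 0.13 for Tln1. Bcar1 was 0.0076 with no filter. Tln1 was -0.042 in DESeq2, -0.0070 with RLE factors, -0.030 in edgeR, -0.024 at a CPM of at least 20, -0.011 at a TPM of at least 20 (-0.015 on the longest transcript) and -0.14 with weights. The causes were not tested. The 10 differences of means in the authors' log2 table, also an added setting, had the sign of the fit.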

Other observations

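The 5 genes whose levels were most like those of Ptk2b were looked for among 12876 genes, by Pearson's r of log2 CPM over the 10 libraries after subtracting group means. They were Rpl4 at 0.93, Abhd14a at 0.93, Tnfrsf22 at 0.90, Rps25 at 0.89 and Pbdc1 at 0.89. These genes were picked as the highest of 12876 values over 10 libraries. The size of r reflects that choice, and nothing is read from it. Rpl4 and Rps25 encode ribosomal proteins, a gene class with many pseudogene copies, and whether their counts hold reads of such copies was not measured. Tnfrsf22, a decoy receptor of the TRAIL family, averaged 3.97 ± 0.32 log2 CPM in KP tumors and 2.95 ± 0.37 in KPG1 tumors (mean ± SD, n = 5 each), without overlap. Rps25 also did not overlap, at 7.76 ± 0.08 and 7.20 ± 0.20 log2 CPM (SD, n = 5 each), while Rpl4, Abhd14a and Pbdc1 overlapped. Of all genes tested, 1.76% did not overlap and were lower in KPG1. Of the other 9 members, the one most like Ptk2b was Bcar3, with an r of 0.51 that was above that of 92.0% of the genes searched.

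Members were also set against the glucose transporter genes Slc2a1 and Slc2a3 within groups, a choice made after the values were seen. Of 20 relations 0 passed an adjusted p of 0.05 by Pearson's r or Spearman's rho in the exact permutation test, and 1 had an unadjusted p under 0.05. This was Ptk2 with Slc2a3, with r = -0.88 (exact p 0.0221, adjusted p 0.442) and rho = -0.64 (exact p 0.0749) over 10 libraries, and r = -0.55 without KP 1 and KP 5. Ptk2b had r = 0.14 with Slc2a1 and -0.10 with Slc2a3.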
